A study of Mus musculus with 7 samples.

Results

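The type I interferon-stimulated genes examined here are 34 mouse genes of the antiviral programme, listed by symbol and matched to the Ensembl identifiers of a table of raw read counts. Each symbol matched exactly 1 of the 55414 identifiers. The counts came from Paneth cells (PCs), the granule-bearing secretory cells of the crypt base in the small intestine, which had been purified with a cell sorter from C57BL/6J mice. The mice had received an injection of tumour necrosis factor (TNF), a pro-inflammatory cytokine, or of phosphate-buffered saline (PBS), the vehicle control, and PCs were isolated 15 h later. The 3 PBS and 4 TNF libraries each came from a different mouse, and held 15511455 to 19193721 counts. The sources used here do not state the dose, the sex and age of the mice, the sorting antibodies or the part of the small intestine. There was a single time point and no interferon-treated or interferon-receptor-deficient group.

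Type I interferons are secreted cytokines that bind the receptor formed by Ifnar1 and Ifnar2. The kinases JAK1 and TYK2 then phosphorylate STAT proteins, which join IRF9 in a complex that binds the interferon-stimulated response element (ISRE) in the promoters of its targets. Many of these targets also respond to type III interferon, which acts mainly on epithelial cells, and some respond to interferon gamma, to IRF factors directly or to other inflammatory signals. Their products sense viral RNA, block its translation, degrade it, or tag proteins with the ubiquitin-like protein ISG15.

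Of the 34 genes, 32 had enough counts to be tested between TNF and PBS. Values are CPM, the counts per 1000000 counts of a library whose size was scaled with the TMM method of edgeR, and a gene is called when the quasi-likelihood test of edgeR gave an adjusted p under 0.05 over all 14329 genes tested. Log2 fold changes are TNF over PBS and are given ± their SE, whereas group means are given ± SD over 3 PBS and 4 TNF libraries. After TNF, 29 members were called higher and 1, Ifi27, was called lower, while Oas2 and Isg20 were not called. Over all tested genes, 29.5% were called higher and 30.1% lower, or 59.6% in either direction. All TNF libraries lay above all PBS libraries for 28 of the 32 members, against 29.9% of all tested genes. The median log2 fold change was 2.04 over the 32 members and 0.00 over all tested genes. A call with a rise of at least 2-fold was made for 27 members, against 14.4% of all tested genes. At least 8-fold fitted rises were called for 7 members (Mx1, Usp18, Mx2, Rsad2, Ifit1, Ifi44 and Rtp4), against 2.64% of all tested genes. The summed level of the 34 genes was 335 ± 20.5 CPM in the PBS group and 1166 ± 77.8 CPM in the TNF group.

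**Figure D1:**
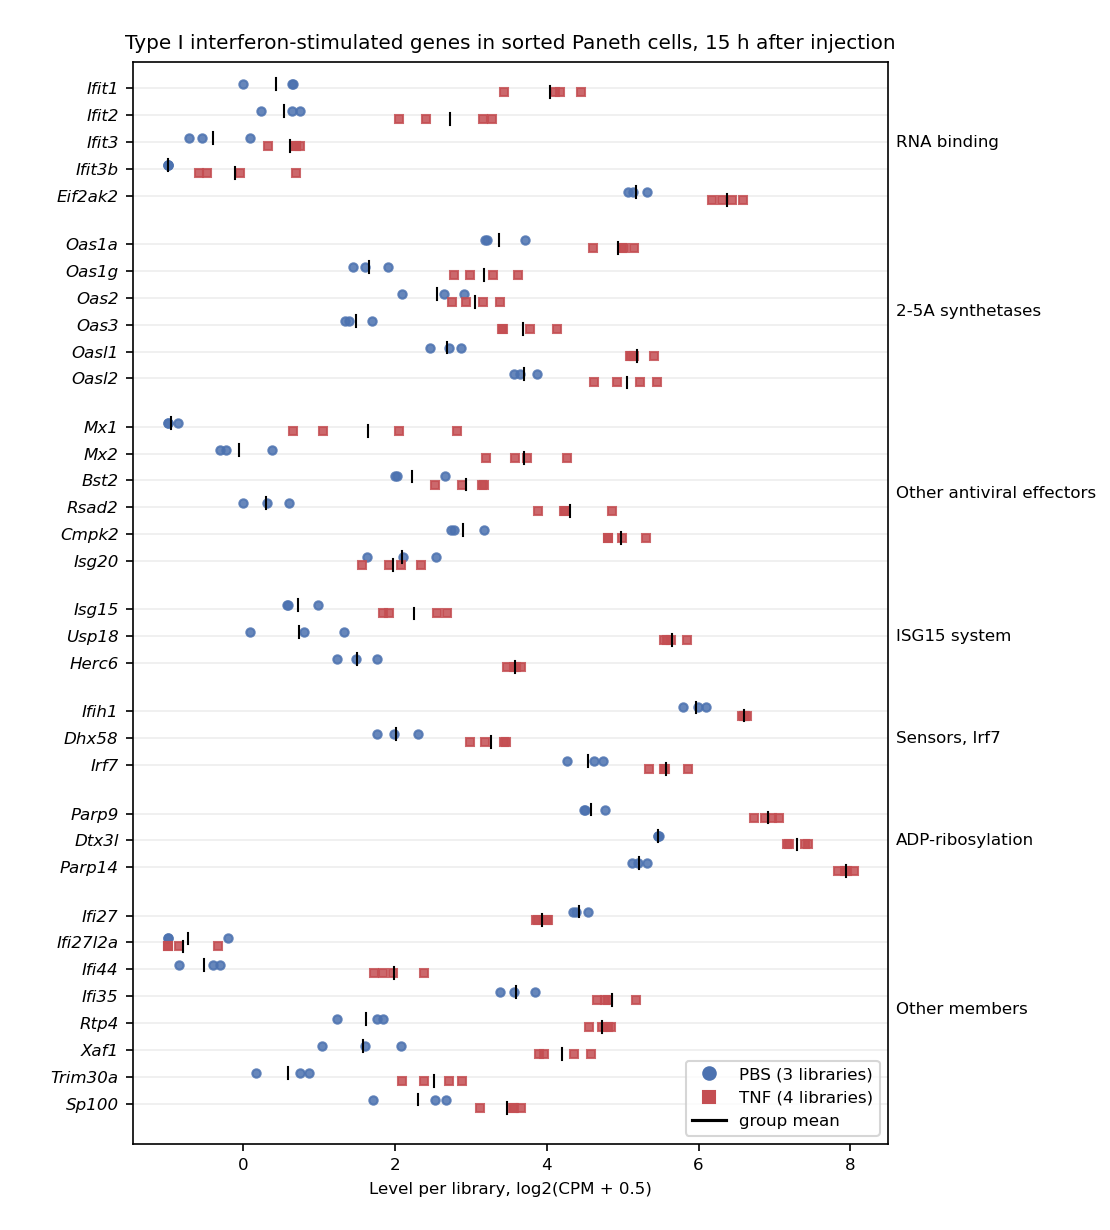
Level of each of the 34 genes in every library, as log2(CPM + 0.5) on the horizontal axis, with genes grouped by role. Circles are the 3 PBS libraries, squares the 4 TNF libraries and black bars the group means; for 28 tested genes every square lies to the right of every circle, whereas Oas2, Bst2, Isg20 and Ifi27l2a overlap and Ifi27 lies to the left after TNF.

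The resting level differed widely between members. After PBS, 9 members had a mean of at least 10 CPM and 9 had a mean under 1 CPM, whereas after TNF these numbers were 21 and 2. Per kilobase of exon, the highest mean levels after PBS were those of Dtx3l (7.66 CPM per kb), Ifih1 (6.90), Eif2ak2 (6.57) and Irf7 (6.08). Each of the 7 members that rose at least 8-fold had a mean of at most 2.62 CPM after PBS. In sorted bulk samples, a higher level in every cell cannot be told apart from a larger share of cells with the transcript.

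PC identity and the content of other cells were checked with lists of marker genes, which were chosen with earlier results of these data known. The 7 PC markers (Lyz1, Defa24, Mmp7, Ang4, Itln1, Clps and Spink4) summed to between 166900 and 270200 CPM after PBS and between 160300 and 287800 CPM after TNF. Of these 7, Mmp7 was called higher (log2 fold change 0.88), Clps was called lower (-2.27) and 5 were not called. Of 17 leukocyte markers, 5 had 0 counts in every library (among them Cd3e, Ms4a1, Ly6c2 and Siglech), and the list summed to 25.2 to 33.3 CPM after PBS and 16.6 to 26.9 CPM after TNF. Of 4 tested leukocyte markers, Ptprc was called lower (log2 fold change -0.95) and 0 were called higher. Cd68 (log2 fold change 1.04), Itgam (0.14) and Lyz2 (-0.23) were not called. Among markers with too few counts to test, Csf1r had 1 count after PBS and 14 after TNF. Itgax had 0 and 6 counts, and Adgre1 had 16 and 8. The 8 stromal and endothelial markers summed to 2.39 to 2.72 CPM after PBS and to 8.09 to 9.96 CPM after TNF, mostly through Vwf, and Col1a2 had 0 counts throughout. The 9 enterocyte markers summed to 201 to 300 CPM in the PBS libraries and to 39.9 to 67.1 CPM in the TNF libraries, with 5 of 6 tested genes called lower. Of the goblet, tuft, enteroendocrine and stem cell markers, 4 of 5, 4 of 4, 1 of 4 and 4 of 4 tested genes were called lower and 0 higher. Over all tested genes, 30.1% were called lower and 29.5% higher. The goblet markers summed to 6540 to 12700 CPM after PBS and 5780 to 6520 CPM after TNF. For tuft markers these sums were 1270 to 2080 and 219 to 578 CPM. They were 10.9 to 64.1 and 8.78 to 16.8 CPM for enteroendocrine markers, and 2410 to 3530 and 958 to 1590 CPM for stem cell markers. The share of mitochondrially encoded mRNAs was 0.394% to 0.585% after PBS and 0.204% to 0.317% after TNF. The part of these shifts in the changes of the members was not tested.

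The promoters were searched for the core of the ISRE because this element is the known link between these genes and interferon signalling. RefSeq promoter windows (GRCm38.p6, 250 bases before to 50 bases after each annotated start site) were at hand for 24 members. The core, which is GAAA, any 2 bases and GAAA on either strand, was found in a window of 12 of these 24 members (50%), against 3.64% of tested genes with a window and 3.44% of all promoter windows. The following 4 windows are shown because they belong to members with large changes (Rsad2 and Ifit1) and with smaller ones (Isg15 and Bst2), read 5′ to 3′ along the gene. They lie at chr19:34640639-34640938, plus strand (Ifit1), chr12:26456403-26456702, minus strand (Rsad2), chr4:156200769-156201068, minus strand (Isg15) and chr8:71537423-71537722, minus strand (Bst2), all in GRCm38.p6. Capitals mark the ISRE core or its reverse complement, and runs longer than 10 capitals are overlapping cores.
Ifit1: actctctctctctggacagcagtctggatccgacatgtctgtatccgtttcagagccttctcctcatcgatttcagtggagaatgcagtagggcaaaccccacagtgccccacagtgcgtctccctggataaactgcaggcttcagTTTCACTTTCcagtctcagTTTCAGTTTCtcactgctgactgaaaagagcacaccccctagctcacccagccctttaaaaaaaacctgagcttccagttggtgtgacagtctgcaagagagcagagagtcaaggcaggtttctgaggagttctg
Rsad2: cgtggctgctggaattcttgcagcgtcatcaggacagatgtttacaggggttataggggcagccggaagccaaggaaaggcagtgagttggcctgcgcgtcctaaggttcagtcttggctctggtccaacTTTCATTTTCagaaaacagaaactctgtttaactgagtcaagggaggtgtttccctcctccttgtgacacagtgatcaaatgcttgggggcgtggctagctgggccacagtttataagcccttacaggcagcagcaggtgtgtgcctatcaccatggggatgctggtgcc
Isg15: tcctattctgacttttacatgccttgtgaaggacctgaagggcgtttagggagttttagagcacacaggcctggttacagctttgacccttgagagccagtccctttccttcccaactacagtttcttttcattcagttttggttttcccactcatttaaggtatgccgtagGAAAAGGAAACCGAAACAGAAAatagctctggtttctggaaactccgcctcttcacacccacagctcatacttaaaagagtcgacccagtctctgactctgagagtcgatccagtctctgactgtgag
Bst2: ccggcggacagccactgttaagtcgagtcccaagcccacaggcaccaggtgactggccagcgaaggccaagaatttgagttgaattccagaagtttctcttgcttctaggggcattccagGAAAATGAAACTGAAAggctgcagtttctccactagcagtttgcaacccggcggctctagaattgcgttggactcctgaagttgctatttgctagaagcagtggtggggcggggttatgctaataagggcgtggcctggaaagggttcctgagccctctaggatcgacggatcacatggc
Ifit1 held 2 separate cores, Rsad2 held 1, and Isg15 held 3 that overlap in 1 run. In Bst2, the core farther upstream of the 2 overlapping cores also overlapped a match to the gamma-activated site (GAS, TTCNNNGAA). This GAS match in turn overlapped a match to the NF-kB consensus.

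The changes of members with and without a core were set side by side. The log2 fold changes of the 11 tested members with a core ran from 0.64 to 4.69, with a median of 1.83. For the 12 members with a window but no core in it they ran from -0.16 to 4.07, with a median of 2.00. The GAS letters were found in 6 of 24 members (25%), against 8.31% of tested genes with a window, and the NF-kB consensus in 5 of 24 (20.8%), against 12.3%. Among tested genes that are no members, 37.3% of the 359 with an ISRE core in a window and 30.7% of the 9789 without one were called higher. Other known targets of interferon were not left out of these genes, and their part in the difference was not tested. These matches are counts of letters and say nothing on binding. The 10 members with no window in the table used were Oas2, Mx1, Mx2, Usp18, Dhx58, Parp9, Parp14, Ifi27, Ifi27l2a and Rtp4. Of these, Mx1, Mx2, Usp18 and Rtp4 had fitted rises of at least 8-fold, and the medians above leave them out.

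**Figure D2:**
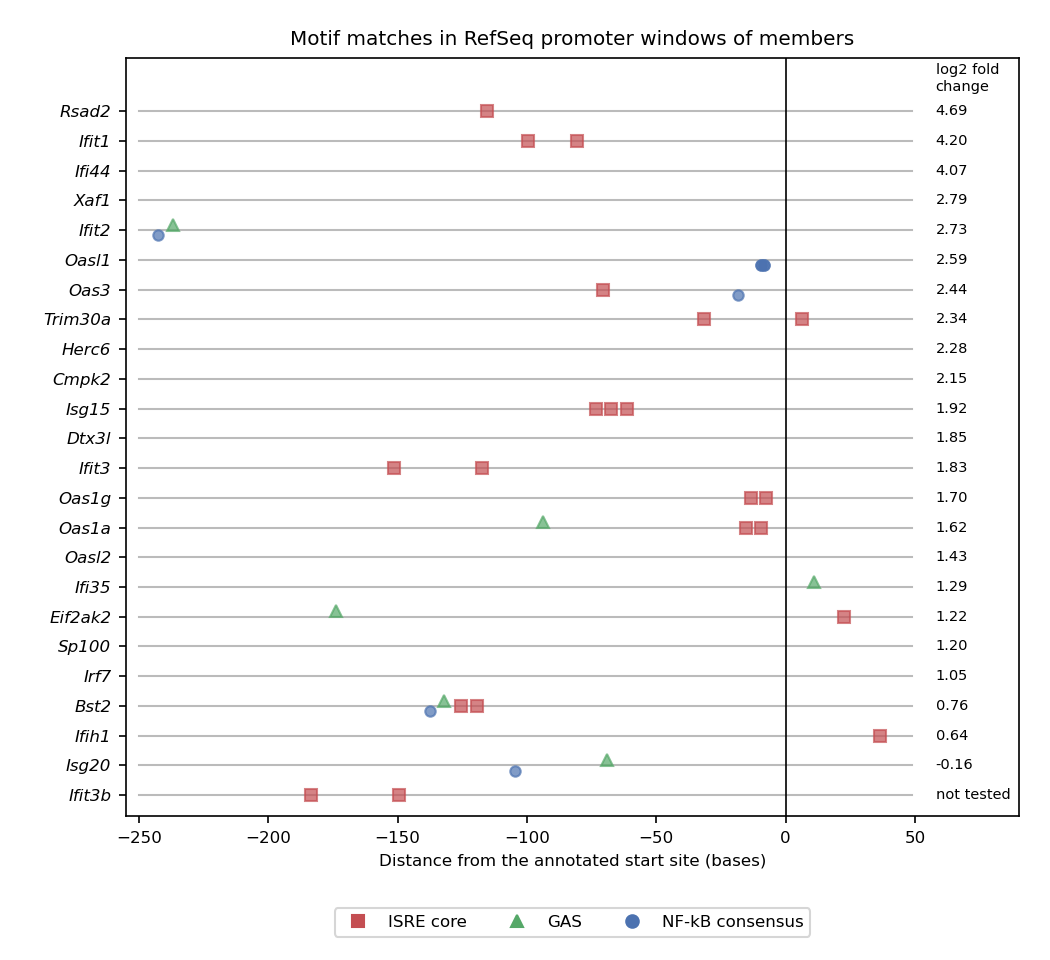
Position of motif matches relative to the annotated start site (horizontal axis, in bases) for the 24 members with RefSeq promoter windows, ordered by log2 fold change, which is printed at the right; several windows of 1 gene share a row. Squares mark ISRE cores, triangles GAS matches and circles NF-kB consensus matches; rows with and without squares are found along the whole order.

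The RNA-binding members were the IFIT proteins, which bind viral RNA ends and hinder its translation, and Eif2ak2, which encodes the double-stranded RNA-dependent kinase PKR. All 4 tested genes of this group were called higher. Ifit1 (ENSMUSG00000034459, chromosome 19) had 0.494, 1.07 and 1.06 CPM in the PBS libraries and 10.4, 21.4, 16.8 and 17.5 CPM in the TNF libraries. Each TNF library thus lay well above each PBS library, and the log2 fold change was 4.20 ± 0.32 (edgeR, adjusted p = 1.2e-07). Ifit2 rose by 2.73 ± 0.40 (edgeR, adjusted p = 5.23e-05) on the log2 scale, from 0.970 ± 0.258 CPM after PBS to 6.52 ± 2.71 CPM after TNF. Eif2ak2 (ENSMUSG00000024079, chromosome 17) stood at a higher level from the start, with 33.2, 39.3 and 34.7 CPM in the PBS libraries and 95.5, 71.8, 86.0 and 79.0 CPM in the TNF libraries. Its change was smaller than that of Ifit1, with a log2 fold change of 1.22 ± 0.12 (edgeR, adjusted p = 1.31e-06), and its groups did not overlap.

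Ifit3 and its close copy Ifit3b were barely expressed. Ifit3 (ENSMUSG00000074896, chromosome 19) had 0.185, 0.560 and 0.106 CPM in the PBS libraries and 1.12, 1.12, 0.750 and 1.18 CPM in the TNF libraries, from a total of 16 counts after PBS and 71 after TNF. Its log2 fold change was 1.83 ± 0.66 (edgeR, adjusted p = 0.0284), and was 2.79 without PBS replicate 2. Ifit3 was no longer called when PBS replicate 1 was left out (log2 fold change 1.62, edgeR adjusted p = 0.102) or PBS replicate 3 (1.43, 0.104), with an adjusted p of 0.0122 to 0.104 over its 13 alternatives. Ifit3b (ENSMUSG00000062488, chromosome 19) had 0 counts after PBS and a total of 32 after TNF, and did not pass the filter on low counts. It had 0.168, 0.472, 0.214 and 1.11 CPM in the TNF libraries. Against a floor of 3 counts over the PBS group, and relative to total counts without TMM scaling, it was at least 7.58-fold higher, and at least 5.01-fold without PBS replicate 1, 4.86-fold without PBS replicate 2 and 4.75-fold without TNF replicate 4. Its highest level was in TNF replicate 4. Of the windows of 75 bases in the annotated transcripts, 23.5% of those of Ifit3 and 36.9% of those of Ifit3b stand in both genes, so their counts are uncertain individually. The genes Ifit2, Ifit3, Ifit3b and Ifit1 lie on chromosome 19 with start sites within 89801 bases (GRCm38.p6).

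The oligoadenylate synthetases make a second messenger that switches on RNase L, which degrades RNA, and Oasl1 encodes a relative that lacks this activity. Of the 6 genes, all on chromosome 5, 5 were called higher and Oas2 was not. Oasl1 (ENSMUSG00000041827, chromosome 5) changed most, with 5.01, 6.82 and 6.05 CPM in the PBS libraries and 34.9, 42.0, 33.9 and 33.6 CPM in the TNF libraries. The lowest TNF library was far above the highest PBS library, and the log2 fold change was 2.59 ± 0.16 (edgeR, adjusted p = 1.19e-08). Oasl2 (ENSMUSG00000029561, chromosome 5), its neighbour with a start site 26306 bases away (GRCm38.p6), had 11.4, 12 and 14.1 CPM in the PBS libraries and 29.8, 43.4, 36.9 and 24.1 CPM in the TNF libraries. Its groups did not overlap and the log2 fold change was 1.43 ± 0.19 (edgeR, adjusted p = 2.18e-05). In contrast, Oas2 (ENSMUSG00000032690, chromosome 5) had 5.75, 7.02 and 3.76 CPM in the PBS libraries and 8.39, 7.13, 9.96 and 6.22 CPM in the TNF libraries, with overlapping groups and a log2 fold change of 0.53 ± 0.26 (edgeR, adjusted p = 0.0937). Only without PBS replicate 2 was Oas2 called, with a log2 fold change of 0.74 and an edgeR adjusted p of 0.0494. Its adjusted p ranged from 0.0494 to 0.326 over 14 alternatives.

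Between these extremes, the log2 fold changes were 2.44 ± 0.26 (edgeR, adjusted p = 2.13e-06) for Oas3, 1.70 ± 0.28 (edgeR, adjusted p = 0.000122) for Oas1g and 1.62 ± 0.18 (edgeR, adjusted p = 3.33e-06) for Oas1a. For each of them every TNF library lay above every PBS library. Oas1a and Oas1g are neighbouring copies with start sites 19912 bases apart (GRCm38.p6), and 12.3% and 37.7% of their windows of 75 bases are shared with other genes, mainly with each other. In both, 2 overlapping ISRE cores lay within 20 bases before the start site.

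The other antiviral effectors showed the widest range of changes. Mx1 and Mx2 encode dynamin-like GTPases that trap viral components, and the Mx1 protein of C57BL/6 mice is known to be inactive through a deletion. Mx1 (ENSMUSG00000000386, chromosome 16) had 0, 0.0509 and 0 CPM in the PBS libraries and 6.55, 3.65, 1.07 and 1.57 CPM in the TNF libraries. The totals were 1 count after PBS and 223 counts after TNF. Relative to the total counts of each group, without TMM scaling, their ratio was 159, with a 95% exact binomial interval of 28.2 to 6290 that covers counting error only. Among the TNF libraries the level was highest in replicate 1 and lowest in replicate 3. The single PBS count lay in replicate 2. On the same scale, Mx1 was at least 33.9-fold higher than a floor of 3 counts without this library, and without TNF replicate 1 the ratio was 97.6 (95% interval 17.2 to 3890). Mx1 was called (edgeR adjusted p = 5.99e-05). Mx2 rose from 0.487 ± 0.268 CPM after PBS to 12.9 ± 4.22 CPM after TNF, a log2 fold change of 4.69 ± 0.38 (edgeR, adjusted p = 2.11e-07), with no overlap.

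Rsad2 encodes viperin, a radical enzyme that makes a chain-terminating nucleotide, and Cmpk2 is a mitochondrial nucleotide kinase that supplies its substrate. Their start sites lie 12763 bases apart on opposite strands of chromosome 12 (GRCm38.p6). Rsad2 (ENSMUSG00000020641, chromosome 12) had 0.494, 1.02 and 0.742 CPM in the PBS libraries and 18.2, 28.6, 18.4 and 14.3 CPM in the TNF libraries. The lowest TNF library was far above the highest PBS library, and the log2 fold change was 4.69 ± 0.32 (edgeR, adjusted p = 3.65e-08). Cmpk2 (ENSMUSG00000020638, chromosome 12) started higher and changed less, with 6.18, 8.50 and 6.36 CPM in the PBS libraries and 27.4, 39, 27.5 and 31.3 CPM in the TNF libraries and a log2 fold change of 2.15 ± 0.18 (edgeR, adjusted p = 2.25e-07). In both genes TNF replicate 2 was the highest library.

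Bst2, which encodes tetherin, a membrane protein that holds budding virions at the cell surface, and Isg20, an exonuclease gene, differed from this pattern. Bst2 (ENSMUSG00000046718, chromosome 8) had 5.81, 3.56 and 3.50 CPM in the PBS libraries and 5.26, 6.90, 8.35 and 8.51 CPM in the TNF libraries. PBS replicate 1 lay above TNF replicate 1, and the log2 fold change was 0.76 ± 0.27 (edgeR, adjusted p = 0.0256). Bst2 was no longer called when leaving out PBS replicate 2 (log2 fold change 0.65, edgeR adjusted p = 0.102), PBS replicate 3 (0.63, 0.0876), TNF replicate 3 (0.68, 0.0728) or TNF replicate 4 (0.67, 0.0688), and its adjusted p ranged from 0.00827 to 0.118 over 14 alternatives. Isg20 (ENSMUSG00000039236, chromosome 7) had 5.32, 2.60 and 3.82 CPM in the PBS libraries and 2.46, 3.71, 3.27 and 4.58 CPM in the TNF libraries. The groups overlapped throughout and the log2 fold change was -0.16 ± 0.33 (edgeR, adjusted p = 0.702).

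ISG15 is a ubiquitin-like protein that is attached to other proteins by the ligase encoded in mice by Herc6 and removed by USP18, which also blocks signalling from the type I interferon receptor. All 3 genes were called higher. Usp18 (ENSMUSG00000030107, chromosome 6) had 1.24, 0.560 and 2.02 CPM in the PBS libraries and 47.5, 56.9, 49.2 and 46.3 CPM in the TNF libraries; no member with more than 3 counts in each group changed more. Its log2 fold change was 5.30 ± 0.27 (edgeR, adjusted p = 5.77e-09). Isg15 itself (ENSMUSG00000035692, chromosome 4) stayed low, with 0.989, 1.48 and 1.01 CPM in the PBS libraries and 3.08, 5.95, 5.35 and 3.27 CPM in the TNF libraries and a log2 fold change of 1.92 ± 0.38 (edgeR, adjusted p = 0.000607). Of its windows of 75 bases, 19.9% are shared with another annotated gene. Herc6 rose from 2.35 ± 0.525 CPM after PBS to 11.4 ± 0.615 CPM after TNF, with a log2 fold change of 2.28 ± 0.23 (edgeR, adjusted p = 1.25e-06). Per kilobase of exon, the mean level after TNF was 15.4 CPM per kb for Usp18, 5.64 for Isg15 and 1.10 for Herc6, and after PBS it was 0.391, 1.48 and 0.225 CPM per kb.

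**Figure D3:**
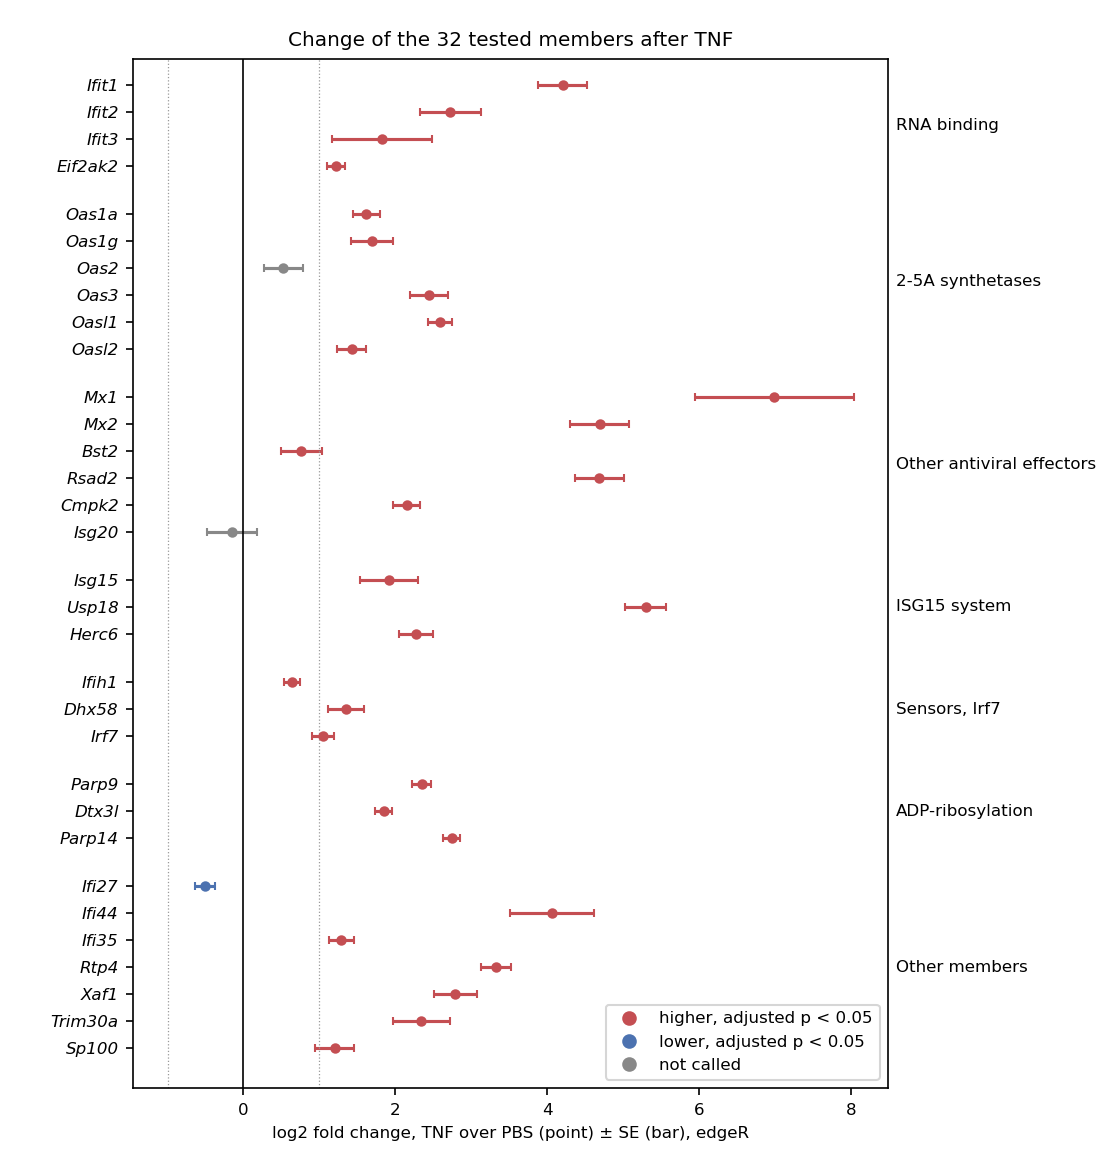
Log2 fold change of TNF over PBS for the 32 tested members, with bars for the standard error of the edgeR fit and genes grouped by role. Most members lie between 1 and 3; the point of Mx1 (6.99) rests on 1 PBS count and is no bound, and Ifi27 is the only member called lower (-0.50).

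The RNA sensors and the transcription factor gene Irf7 were expressed at rest and rose moderately. Ifih1 encodes MDA5, a sensor of long double-stranded RNA, Dhx58 encodes its relative LGP2, and IRF7 is the factor that amplifies interferon alpha production. Ifih1 (ENSMUSG00000026896, chromosome 2) had 68.2, 63.2 and 54.8 CPM in the PBS libraries and 94.5, 99.3, 96.7 and 96.9 CPM in the TNF libraries. Its groups did not overlap although the log2 fold change was only 0.64 ± 0.10 (edgeR, adjusted p = 0.000103). Dhx58 (ENSMUSG00000017830, chromosome 11) had 2.90, 4.43 and 3.45 CPM in the PBS libraries and 10.5, 8.61, 10.3 and 7.46 CPM in the TNF libraries, with a log2 fold change of 1.35 ± 0.24 (edgeR, adjusted p = 0.000222). Irf7 rose from 23.0 ± 3.88 CPM after PBS to 47.6 ± 7.2 CPM after TNF, with a log2 fold change of 1.05 ± 0.15 (edgeR, adjusted p = 3.78e-05).

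The genes of the ADP-ribosylation group were expressed at rest and rose in all 3 cases. Parp14 encodes a mono-ADP-ribosyltransferase, and Parp9 and Dtx3l encode partners in 1 complex that joins a ubiquitin ligase to a macrodomain protein. Parp14 (ENSMUSG00000034422, chromosome 16) had 34.2, 39.6 and 36.3 CPM in the PBS libraries and 244, 263, 228 and 247 CPM in the TNF libraries. The replicates of each group were close together and the log2 fold change was 2.74 ± 0.11 (edgeR, adjusted p = 3.4e-10). Dtx3l (ENSMUSG00000049502, chromosome 16) had 43.7, 43.8 and 44.0 CPM in the PBS libraries and 144, 169, 145 and 173 CPM in the TNF libraries, and changed least of the 3 with 1.85 ± 0.11 (edgeR, adjusted p = 1.01e-08). Parp9 rose from 23.6 ± 2.66 CPM after PBS to 120.2 ± 11.5 CPM after TNF, with a log2 fold change of 2.35 ± 0.12 (edgeR, adjusted p = 3.3e-09). Parp9 and Dtx3l share 6.87% and 7.46% of their windows of 75 bases with other genes, mainly with each other, and reads from such overlaps cannot be told apart without strand. After TNF these were the members with the highest level per kilobase of exon, at 27.6 for Dtx3l, 25.6 for Parp14 and 23.9 CPM per kb for Parp9. Together they made up 50.5% of the gain in the summed CPM of the 34 genes.

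Of the remaining 8 members, 6 were called higher, Ifi27 was called lower and Ifi27l2a could not be tested. Ifi44 (ENSMUSG00000028037, chromosome 3) changed most, with 0.309, 0.255 and 0.0530 CPM in the PBS libraries and 2.80, 4.72, 3.43 and 3.08 CPM in the TNF libraries and a log2 fold change of 4.07 ± 0.55 (edgeR, adjusted p = 2.47e-05). Ifi35 (ENSMUSG00000010358, chromosome 11) had 9.89, 13.8 and 11.4 CPM in the PBS libraries and 24.7, 35.6, 27.5 and 26.8 CPM in the TNF libraries. Its log2 fold change was 1.29 ± 0.17 (edgeR, adjusted p = 1.45e-05), without overlap of the groups. Rtp4, a chaperone gene for membrane receptors, rose from 2.62 ± 0.665 CPM after PBS to 26.2 ± 2.22 CPM after TNF (log2 fold change 3.32). Xaf1, which encodes a pro-apoptotic antagonist of XIAP, rose from 2.60 ± 1.09 CPM after PBS to 18.2 ± 4.31 CPM after TNF (2.79). The log2 fold changes were 2.34 for Trim30a, a ubiquitin ligase gene, and 1.2 for Sp100, which encodes a component of nuclear bodies. None of these 4 genes had an edgeR adjusted p above 0.00119.

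Ifi27 was the only member called lower, and its relative Ifi27l2a was close to undetected. Ifi27 (ENSMUSG00000064215, chromosome 12) had 19.9, 22.7 and 20.4 CPM in the PBS libraries and 15.6, 14.2, 14 and 15.6 CPM in the TNF libraries. Every TNF library was below every PBS library, and the log2 fold change was -0.50 ± 0.13 (edgeR, adjusted p = 0.00477), ranging from -0.67 to -0.44 over 14 alternatives. Ifi27l2a (ENSMUSG00000079017, chromosome 12) had 0.371, 0 and 0 CPM in the PBS libraries and 0, 0.295, 0.0535 and 0 CPM in the TNF libraries. These were a total of 6 counts after PBS, all in replicate 1, and 6 after TNF, so that no difference was detectable at this depth.

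Within each group, the members did not vary evenly across libraries. Each value was set against the mean of its own group on the scale of log2(CPM + 0.5). Among the TNF libraries, replicate 2 held the highest value for 20 of 32 members, against 21.9% of all tested genes, and its median deviation over the members was 0.21. The median deviation was -0.10 for TNF replicate 1 and -0.03 for replicates 3 and 4. Among the PBS libraries, replicate 2 held the highest value for 20 of 32 members, against 30.9% of all tested genes, with a median deviation of 0.18. The same deviations over all tested genes were at most 0.03 in size. TNF replicate 2 had the lowest summed enterocyte markers of all libraries (39.9 CPM), and PBS replicate 2 had the highest summed enterocyte, tuft cell and leukocyte markers of the PBS libraries (300, 2078 and 33.3 CPM). Of the leukocyte markers, Ptprc had 11.4, 26.2 and 11.6 CPM in PBS replicates 1 to 3. The part of these in the spread of the members was not tested. Without TNF replicate 2 the median log2 fold change of the members was 1.92, and without PBS replicate 2 it was 2.38, with 29 members called higher in both cases.

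**Figure D4:**
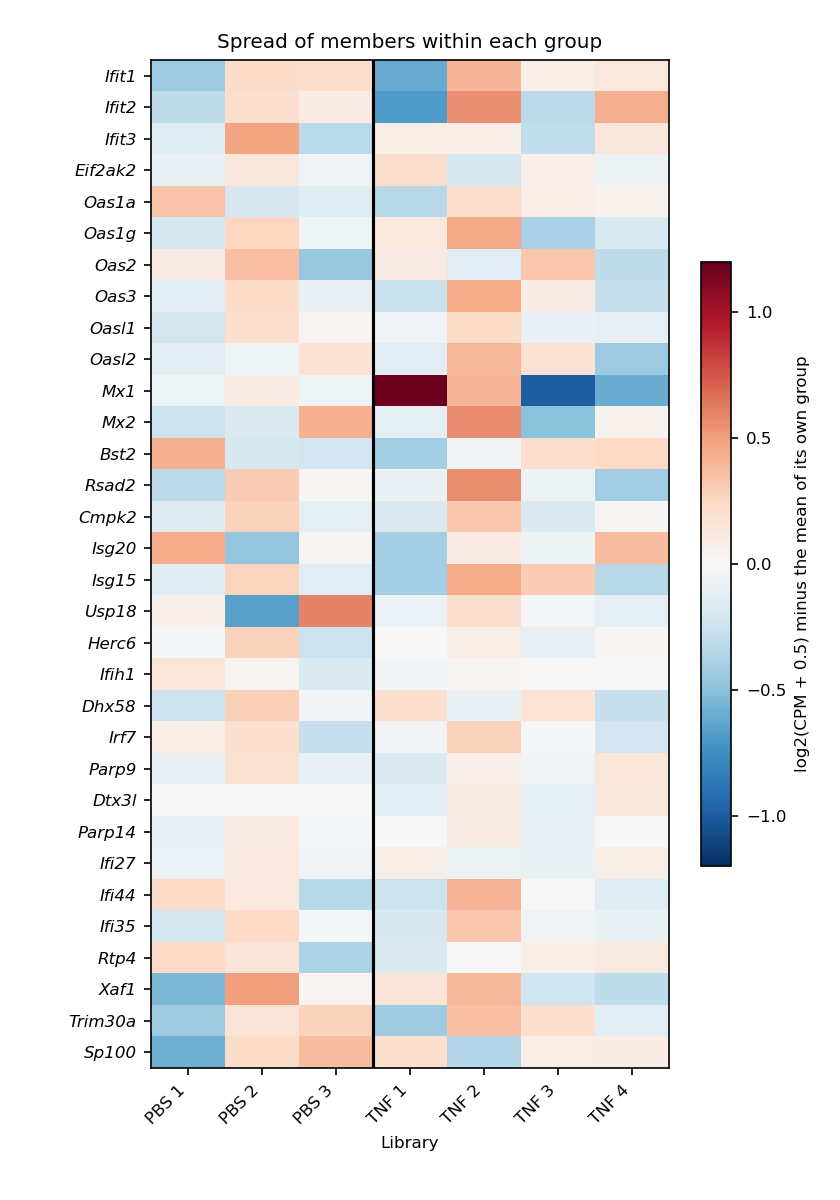
Deviation of each tested member in each library from the mean of its own group, in units of log2(CPM + 0.5), with red above and blue below the mean; the black line separates PBS from TNF libraries. The columns of PBS replicate 2 and TNF replicate 2 are mostly red, Mx1 shows the widest spread among TNF libraries, and Parp14 and Dtx3l show little.

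The genes that make, receive and transmit the interferon signal were examined next, from a list of 51 genes. Of 20 interferon genes of types I, II and III, 19 had 0 counts in every library, among them Ifnb1, Ifng, Ifnl2 and Ifnl3, and Ifna5 had 1 count in 1 TNF library. A count of 0 allows a level of up to 0.156 to 0.193 counts per 1000000 total counts (without TMM scaling), depending on the library, so that interferon transcripts were not detectable in these PCs at this depth. Of the 30 genes of the list that could be tested, 20 were called higher and 5 lower, against 29.5% and 30.1% of all tested genes, with a median log2 fold change of 0.98. Rigi, the gene of the RNA sensor RIG-I, was among those called higher but was not called with total counts (log2 fold change 0.30, edgeR adjusted p = 0.123).

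Of the receptor genes, 5 of 6 rose. The type I receptor genes Ifnar1 and Ifnar2 had log2 fold changes of 0.97 ± 0.11 (edgeR, adjusted p = 3.35e-06) and 1.45 ± 0.17 (edgeR, adjusted p = 6.41e-06). Ifnlr1, the specific chain of the type III receptor, rose by 1.14 on the log2 scale, and Ifngr2, a chain of the interferon gamma receptor, changed most (log2 fold change 2.5 ± 0.13, edgeR adjusted p = 2.85e-09). Il10rb, the shared chain of the type III receptor, had 36.8 ± 7.62 CPM after PBS and 40.5 ± 5.05 CPM after TNF and was not called (log2 fold change 0.14 ± 0.15, edgeR adjusted p = 0.446). Of the kinases, STATs and IRFs, 6 of 9 rose and 2 fell. Irf9 and Stat2 had log2 fold changes of 1.37 and 1.25 (edgeR adjusted p = 1.49e-06 and 3.52e-06). Tyk2 and Irf3 fell, with log2 fold changes of -1.07 ± 0.12 (edgeR, adjusted p = 4.47e-06) and -0.89 ± 0.14 (edgeR, adjusted p = 0.000101).

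Nucleic acid sensing and inhibitor genes moved in both directions, as did all tested genes, of which 29.5% were called higher and 30.1% lower. Of 9 tested sensing genes 6 rose and 2 fell, and Tlr7 had too few counts to be tested. Sting1, the adaptor of the cytosolic DNA sensor, rose from 11.3 ± 1.92 CPM after PBS to 226 ± 35.1 CPM after TNF (log2 fold change 4.33 ± 0.17, edgeR adjusted p = 2.93e-10), whereas Mavs, the adaptor of MDA5 and RIG-I, fell from 46.2 ± 6.02 CPM after PBS to 10 ± 2.98 CPM after TNF (log2 fold change -2.20 ± 0.21, edgeR adjusted p = 1.68e-06). Ticam1, the adaptor of TLR3, had a log2 fold change of -0.39 ± 0.14 (edgeR, adjusted p = 0.0305), and this call was lost when PBS replicate 1 (-0.32), PBS replicate 2 (-0.37), TNF replicate 3 (-0.33) or TNF replicate 4 (-0.36) was left out. Cgas was not called (log2 fold change 0.05 ± 0.25, edgeR adjusted p = 0.863). Of the inhibitors of the pathway, Socs3 changed most (log2 fold change 4.37 ± 0.31, edgeR adjusted p = 1.91e-06), Socs1 and Ptpn2 rose, and Irf2, a repressor of interferon targets, fell from 42.4 ± 4.90 CPM after PBS to 12.9 ± 2.5 CPM after TNF (log2 fold change -1.72 ± 0.15, edgeR adjusted p = 4.76e-07). Pias1 and Trim24 were not called, with log2 fold changes of -0.10 and -0.05.

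**Figure D5:**
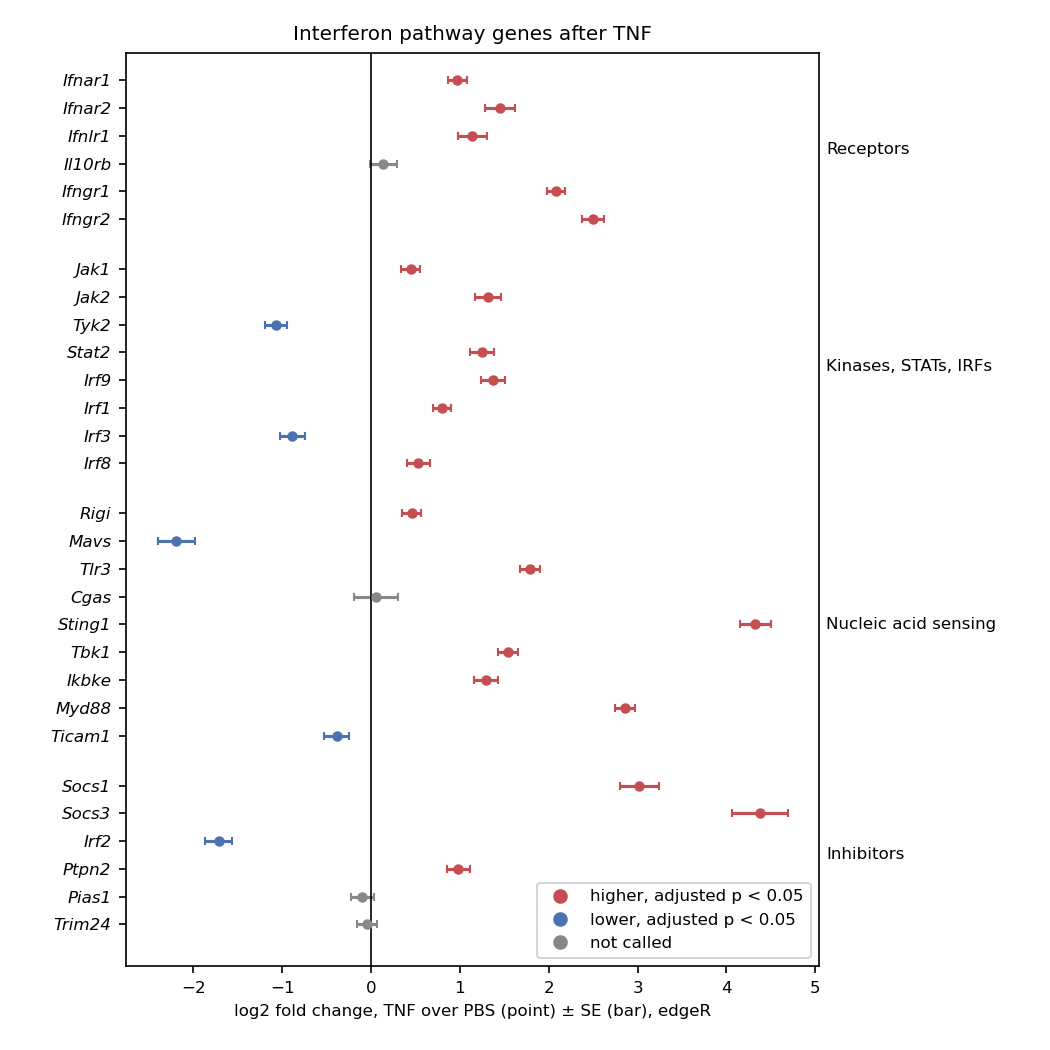
Log2 fold change of TNF over PBS, with bars for the standard error of the edgeR fit, for 29 tested genes of interferon receptors, signalling, nucleic acid sensing and inhibition. Red points were called higher (20), blue points lower (5: Tyk2, Irf3, Mavs, Ticam1 and Irf2) and grey points were not called (Il10rb, Cgas, Pias1 and Trim24).

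The guanylate-binding proteins and the immunity-related GTPases, families better known as targets of interferon gamma, are given beside the members. Of 11 guanylate-binding protein genes 8 were tested and all 8 were called higher, against 29.5% of all tested genes. Their median log2 fold change was 3.86, also with Gbp5, which had 0 counts after PBS, set to its bound from a floor of 3 counts. Of 8 immunity-related GTPase genes 7 were called higher, with a median of 1.73 over the 8, and the median of the 32 members was 2.04. Tgtp2 was not called (log2 fold change -0.65 ± 0.65, edgeR adjusted p = 0.406). No difference between these families and the members was tested, and all values come from the same libraries.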

How the data were processed

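RNA sequencing was done on sorted PCs from 3 PBS and 4 TNF mice. The authors deposited 1 table of raw counts per gene, which was used as deposited, and no column of other values was present. The submitters' processing notes name FastQC, Trimmomatic 0.39, STAR 2.7.10a and DESeq2 and the builds mm10 and mm39, without saying which made the table. The counter, the annotation and the strand setting were not given in the sources used here.

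TNF was compared with PBS by edgeR 4.0.16 (quasi-likelihood F test) in R 4.3.3 (filterByExpr, TMM scaling, robust fit, two-sided) on all 7 libraries. P-values were adjusted by the Benjamini-Hochberg method over 14329 genes and called under 0.05. CPM use TMM-scaled library sizes. SE values come from the fold change and the F statistic. Errors of group means are SD. Ratios at 1 count carry a 95% exact interval, and groups at 0 counts were set to a floor of 3 counts over the group. These ratios and floors use total counts without TMM scaling. Intervals and floors cover counting error only. The fit was tested on simulated data.

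Symbols, chromosomes and exon lengths were taken from GENCODE M39, which held 98.8% of the identifiers. Promoter windows came from RefSeq (GRCm38.p6) and were searched on both strands. The shared sequence between genes was counted over windows of 75 bases.

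The members and lists were chosen with earlier results of these data known. Values in every library are given, for each role group, for the members with the largest and smallest change and the highest mean level, for members that were not called, not tested or overlapped between groups, and for Rsad2, which was added after its values were seen because its promoter is shown. Replicate numbers were not used to pair the samples, because the sources do not say that they mark a shared day or litter. The deviations of same-numbered libraries correlated at -0.37, -0.04 and -0.21 for numbers 1 to 3. Those of other pairs of a PBS and a TNF library correlated between -0.25 and 0.40. These values do not settle whether same-numbered libraries share a day or batch. The alternatives were 3 other scalings, 2 other filters, DESeq2 1.42.0, the replicate block and leaving out each library. A few genes of the marker and pathway lists are included in the counts but not reported here by name.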

Additional observations from a re-analysis of the deposited data

Results flagged for a closer look

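In the TNF group, 5 of 100 genes of the lists had 1 library set apart from the other 3 by Dixon's ratio, among them 2 of the 32 tested members. Over all tested genes the share was 6.04%, and chance gives about 1 in 20. Among the members, Ifit3 was lowest in TNF replicate 3 (0.750 CPM) and Oasl1 was highest in TNF replicate 2 (42.0 CPM). Among the other genes, Ifnar2 was highest in TNF replicate 1 (15.8 CPM), Ifngr1 was lowest in TNF replicate 2 (179.9 CPM), and Trim25, the gene of a ubiquitin ligase that acts on the RNA sensor RIG-I, was lowest in TNF replicate 1 (322 CPM). The PBS group of 3 libraries was too small for this check.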

How the results depend on the processing

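Of the 32 tested members, 28 kept their direction and their side of the threshold in all 14 alternatives. The exceptions were Bst2, Ifit3, Oas2 and Isg20. Between 27 and 29 members were called higher and 1 lower. Leaving out 1 library moved the median log2 fold change of the members between 1.92 and 2.38, the latter without PBS replicate 2. Scaling by total counts gave a median of 1.87, where the median of all tested genes was -0.16, with 3142 genes called higher and 4614 lower over all genes, and Bst2 (0.61, adjusted p = 0.0685) and Ifit3 (1.68, 0.0534) were not called in that edgeR fit. Without a filter, Ifit3 was not called (1.83, edgeR adjusted p = 0.0546), and with at least 1 CPM in 3 libraries it could not be tested.

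With the replicate number as a block, 27 members were called higher with a median of 2.09, and over all genes 3553 were called higher and 3578 lower. Bst2 (0.69, edgeR adjusted p = 0.118), Ifit3 (1.97, 0.0735) and Ticam1 (-0.36, 0.0946) were not called under the block. The sources do not say that same-numbered libraries share more than the number.

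The sign turned for genes that were not called. With total counts, Cgas was at -0.16, Il10rb at -0.0182 and Tdrd7 at -0.0352. Over the fits that left out 1 library, the log2 fold change ran from -0.14 to 0.26 for Cgas, from -0.0305 to 0.24 for Il10rb, from -0.38 to 0.13 for Isg20, from -0.18 to 0.0176 for Ddx60 and from -0.43 to 0.16 for Trim34a. The cause was not tested. Members with few counts (Ifit3, Ifit3b, Mx1 and Ifi27l2a) were limited by depth.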

Other observations

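A further 49 genes described as targets of interferon, none of them a member, were counted in the same way. Of 48 found in the table, 38 could be tested, of which 24 were called higher, 4 lower and 10 not, with a median log2 fold change of 0.97. The share called higher was 63.2%, against 29.5% of all tested genes. With total counts 20 were called higher, and Adar, Znfx1, Batf2 and Ifit1bl1 were then not called. Batf2 was also not called without PBS replicate 1, PBS replicate 2 or TNF replicate 2, nor Ifit1bl1 without PBS replicate 1 or TNF replicate 2. Over the 14 alternatives the number called higher ran from 20 to 25. The 4 genes called lower were Parp11 (log2 fold change -1.04 ± 0.25, edgeR adjusted p = 0.00253), Mov10 (log2 fold change -0.71 ± 0.13, edgeR adjusted p = 0.00033), Pml (log2 fold change -0.66 ± 0.13, edgeR adjusted p = 0.000592) and Slfn9 (log2 fold change -0.64 ± 0.14, edgeR adjusted p = 0.0012). Pml encodes the organiser of the nuclear bodies that also contain Sp100. Among the genes not called were Samd9l (log2 fold change -0.11 ± 0.11, edgeR adjusted p = 0.432), Ddx60, Trim21, Ifitm2 and Oas1b. Ifitm2 was called higher without a filter (log2 fold change 0.46, edgeR adjusted p = 0.00681) and without TNF replicate 1 (0.62, 0.0149), and Oas1c, not called otherwise, without PBS replicate 1 (1.40, 0.0281). Cxcl10, the gene of a chemokine that draws T cells, had totals of 1 count after PBS and 318 counts after TNF. Relative to total counts, without TMM scaling, the ratio was 226, with a 95% exact interval of 40.3 to 8960. Without PBS replicate 3, which held the single PBS count, Cxcl10 was at least 52.6-fold higher on this scale than a floor of 3 counts over the group. Of the 41 genes of this list with a RefSeq promoter window, 21 (51.2%) held an ISRE core in it.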
